A study of Arabidopsis thaliana with 6 samples.

Results

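A group of 26 nuclear genes of Arabidopsis thaliana was read in embryos of the 1-cell/2-cell stage and stood at least 5-fold lower in all older embryos. Genes were chosen on RPM, the reads of a gene scaled to a fixed total of mapped reads per library. The lower of the 1-cell/2-cell libraries had to reach 10 RPM, and the highest of the 4 later libraries had to be at least 5-fold lower. This rule kept 26 of 23874 genes, and 8604 genes passed its first condition. Another 4 genes passed both conditions and were left out by name (AT2G19800, AT2G20670, AT4G26260 and AT4G35770), as were AT4G27450 and the loci from AT2G07660 to AT2G07835. The 26 genes are called early-confined genes here, with early standing for the 1-cell/2-cell stage.

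The libraries hold poly(A) RNA of hybrid embryos from reciprocal crosses of 2 inbred accessions, Cvi-0 and Col-0, with emasculated mothers. By the usual convention the mother is named first, so that Cvi-0 x Col-0 embryos had a Cvi-0 mother and Col-0 x Cvi-0 embryos a Col-0 mother. Each of the 6 libraries came from a pool of 20 hand-dissected, washed embryos, about 40 h (1-cell/2-cell), 64 h (8-cell) or 78 h (about 32-cell) after pollination, with 1 library for each stage and cross. Without a repeated sample in any group, the reciprocal crosses served as the repeats of a stage and the stages as the repeats of a cross. Libraries held 10299142 to 14805499 reads over genes.

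The zygote of Arabidopsis is formed from egg and sperm, elongates, and divides into an apical cell, which founds most of the embryo, and a basal cell, which founds the suspensor. Its RNA can come from the egg, from the sperm, or from new transcription of both parental genomes. Young embryos have no photosynthesis of their own to live on and take up sugars from the surrounding seed. The early-confined genes encode transporters of sugar and inositol, enzymes of cell wall, lipid and nitrile metabolism, chaperones of plastids, zinc finger and signalling proteins, and proteins of unknown function.

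Promoters are printed for the 6 early-confined genes that carry the motif TATCCA within 250 bases before the annotated start. In rice this motif is an element of alpha-amylase promoters that are repressed by sugar. Capitals mark TATCCA or its reverse complement, and each sequence is the 200 bases before the start, read 5′ to 3′ on the strand of the gene. Sequences were read from the TAIR10.1 genome with RefSeq starts. SWEET8 lies on the plus strand (chr5:16089478-16089677) and INT4 on the plus strand (chr4:9290203-9290402). The minus strand holds ANN6 (chr5:3208831-3209030), J8 (chr1:30404714-30404913), J11 (chr4:17050609-17050808) and AT3G15630 (chr3:5297852-5298051).
SWEET8: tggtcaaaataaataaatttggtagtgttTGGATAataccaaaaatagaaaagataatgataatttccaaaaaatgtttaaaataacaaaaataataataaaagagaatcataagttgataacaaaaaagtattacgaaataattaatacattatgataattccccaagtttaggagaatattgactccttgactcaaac
INT4: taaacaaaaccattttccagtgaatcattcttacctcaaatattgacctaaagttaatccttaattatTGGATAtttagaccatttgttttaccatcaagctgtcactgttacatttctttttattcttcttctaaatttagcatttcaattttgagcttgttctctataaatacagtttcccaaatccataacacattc
ANN6: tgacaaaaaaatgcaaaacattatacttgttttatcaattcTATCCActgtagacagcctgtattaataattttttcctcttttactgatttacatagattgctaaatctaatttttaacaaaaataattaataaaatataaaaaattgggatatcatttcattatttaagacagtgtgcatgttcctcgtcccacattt
J8: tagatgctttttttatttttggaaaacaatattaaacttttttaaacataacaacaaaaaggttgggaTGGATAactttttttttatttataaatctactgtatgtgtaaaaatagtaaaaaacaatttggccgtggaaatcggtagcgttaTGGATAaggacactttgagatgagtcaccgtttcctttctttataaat
J11: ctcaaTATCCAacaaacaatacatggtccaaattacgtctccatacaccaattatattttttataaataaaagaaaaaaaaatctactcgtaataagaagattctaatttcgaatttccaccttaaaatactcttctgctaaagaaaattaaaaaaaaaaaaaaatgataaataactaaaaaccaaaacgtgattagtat
AT3G15630: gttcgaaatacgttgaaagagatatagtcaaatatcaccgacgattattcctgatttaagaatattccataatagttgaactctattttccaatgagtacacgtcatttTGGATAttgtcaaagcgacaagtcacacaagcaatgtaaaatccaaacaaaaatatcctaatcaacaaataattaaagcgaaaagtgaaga

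TATCCA was present on either strand in 23.1% of the 26 promoters, against 13.6% of 27443 promoters of the same length and 14.3% of the 8502 promoters of genes with at least 10 RPM in both 1-cell/2-cell libraries. Each of the 6 promoters held 1 copy except that of J8, which held 2. Another 12 motifs were searched. TATAAA, the core of the TATA box, was searched on the strand of the gene within 50 bases before the start, and stood in 19.2% of the 26 promoters (AT3G15450, INT4, ATCTH, J8 and HIR2), against 11% of all promoters. CACGTG, the core of the G-box, was in 0 of the 26 promoters and in 6.49% of all. The same held for ACGTGGC (3.37% of all), AAAATATCT (2.36%), GCCGCC (1.87%) and AAACCCTA (4.49%), each in 0 of the 26. The remaining motifs, searched on both strands like all others but TATAAA, were ACTCAT (11.5% of the 26, 12.3% of all), TTGACC or TTGACT (19.2% and 28.4%), CCGAC (7.69% and 12%), TGACG (19.2% and 18.6%), TGTCTC (11.5% and 10.9%) and GAANNTTC (11.5% and 9.55%). ACGTGGC can overlap CACGTG. These are shares of windows that hold the letters, with no test.

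As a group, the early-confined genes of Cvi-0 x Col-0 embryos summed to 2266 RPM at the 1-cell/2-cell stage, 221 RPM at the 8-cell stage and 113 RPM at the 32-cell stage. In Col-0 x Cvi-0 embryos they summed to 3155, 230 and 121 RPM at these stages. Both crosses thus gave nearly the same later sums and differed at the 1-cell/2-cell stage. The largest part of that gap came from AT3G15450, with 261 RPM in Cvi-0 x Col-0 and 760 RPM in Col-0 x Cvi-0. At this stage 20 of the 26 genes were lower in Cvi-0 x Col-0, while SWEET8 was higher there. The difference between the 1-cell/2-cell stage and the later stages was used to choose the genes, so it is a description and has no test. In pools of whole embryos, fewer cells of a type and less RNA per cell cannot be told apart. RPM is not divided by gene length, so levels are compared within a gene and not between genes.

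**Figure D1:**
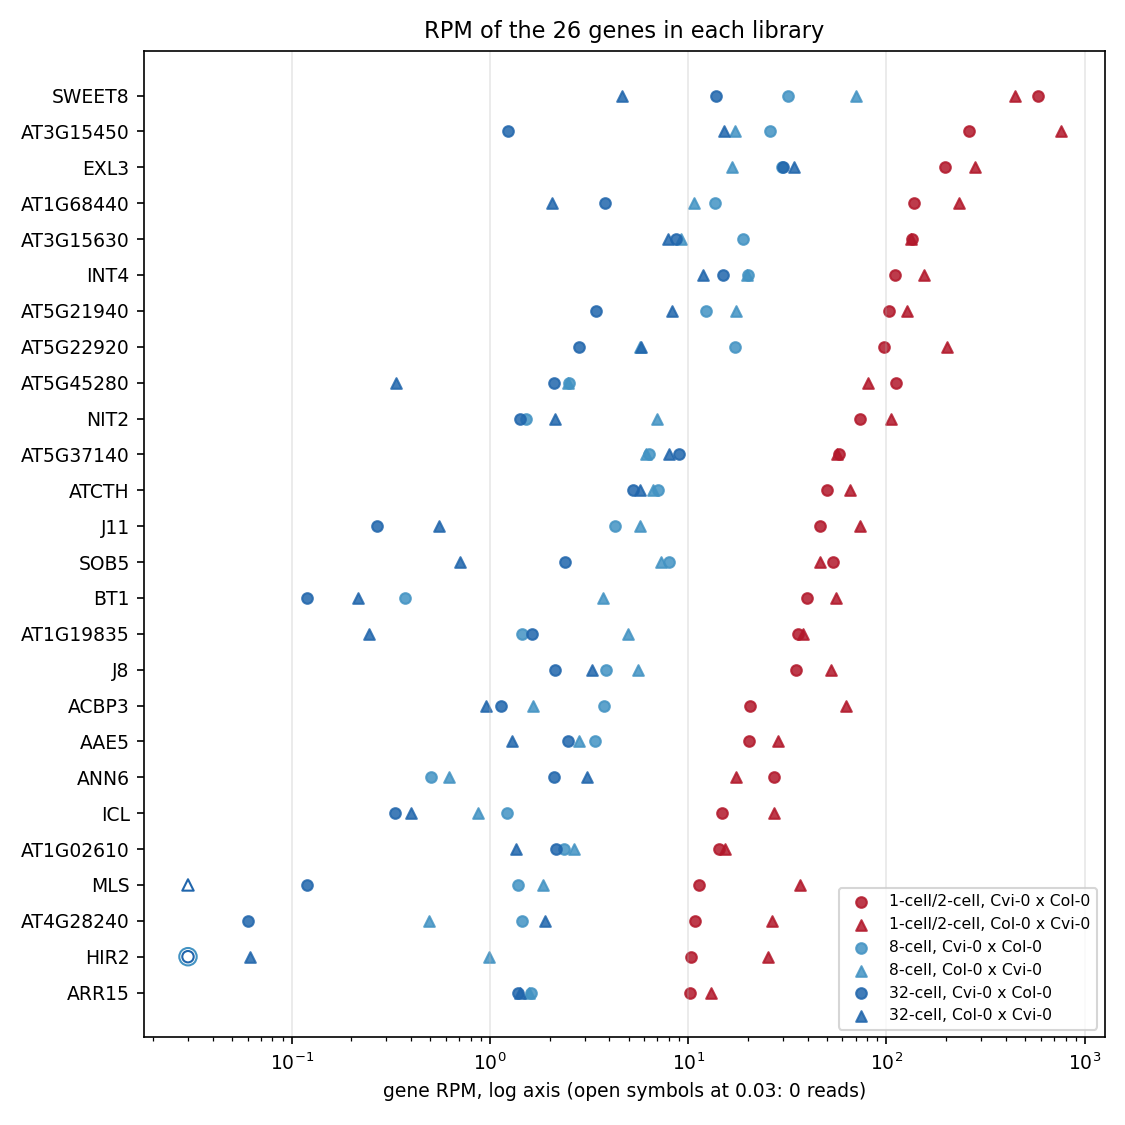
RPM of each early-confined gene in the 6 libraries on a log axis, 1 row a gene, with colours for the stage and symbols for the cross. The 1-cell/2-cell values stand right of all later ones by the rule that chose the genes, while the distance between 8-cell and 32-cell values varies from gene to gene. Open symbols are libraries with 0 reads.

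The transporters were SWEET8 and INT4. SWEET8 (AT5G40260, chr5:16089678-16091797) encodes a glucose transporter of the SWEET family and is best known for its need in pollen wall formation. In Cvi-0 x Col-0 embryos it had 582 RPM at the 1-cell/2-cell stage, 31.7 RPM at the 8-cell stage and 13.8 RPM at the 32-cell stage, and in Col-0 x Cvi-0 embryos 443, 70.2 and 4.61 RPM. The drop before the 8-cell stage is set by the rule, and the level of SWEET8 fell again by the 32-cell stage in both crosses. INT4 (AT4G16480, chr4:9290403-9293379), a symporter of protons and myo-inositol in the plasma membrane, had 111, 20.1 and 14.98 RPM at these stages in Cvi-0 x Col-0 embryos and 154, 19.8 and 11.9 RPM in Col-0 x Cvi-0 embryos. Its 32-cell values were also below its 8-cell values in both crosses.

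Cell wall proteins were represented by EXL3 and AT5G45280. EXL3 (AT5G51550, chr5:20939363-20940895) is an EXORDIUM-like protein of a family tied to cell expansion, and had 198, 29.9 and 30.1 RPM at the 3 stages in Cvi-0 x Col-0 embryos, and 280, 16.7 and 34.1 RPM in Col-0 x Cvi-0 embryos. Unlike most of the group, it was not lower in 32-cell than in 8-cell embryos of either cross. AT5G45280 (chr5:18345534-18349695) encodes a pectin acetylesterase, an enzyme that removes acetyl groups from pectin. It had 112, 2.50 and 2.10 RPM in Cvi-0 x Col-0 embryos and 80.8, 2.48 and 0.338 RPM in Col-0 x Cvi-0 embryos. Its lower 1-cell/2-cell value was 32.4 times its highest later value, the largest such ratio among the 26 genes.

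Enzymes of lipid use included both enzymes that are specific to the glyoxylate cycle, which lets cells make sugar from the acetyl-CoA of fatty acids. Isocitrate lyase (ICL, AT3G21720, chr3:7652487-7656053) had 14.8, 1.21 and 0.330 RPM at the 3 stages in Cvi-0 x Col-0 embryos, and 27.1, 0.867 and 0.3996 RPM in Col-0 x Cvi-0 embryos. Malate synthase (MLS, AT5G03860, chr5:1032099-1034973) had 11.3, 1.38 and 0.120 RPM in Cvi-0 x Col-0 embryos, and 36.4 and 1.86 RPM at the first stages in Col-0 x Cvi-0 embryos. At the 32-cell stage of Col-0 x Cvi-0 it had 0 reads, which allows up to 0.184 RPM (3 reads, counting error only). Both genes were thus near the limit of detection in 32-cell embryos. ACBP3 (AT4G24230), which binds acyl-CoA esters, had 20.6, 3.78 and 1.14 RPM in Cvi-0 x Col-0 embryos, and 62.3, 1.65 and 0.953 RPM in Col-0 x Cvi-0 embryos. AAE5 (AT5G16370), annotated as an acyl activating enzyme, had 20.2, 3.41 and 2.46 RPM in Cvi-0 x Col-0 embryos, and 28.3, 2.81 and 1.29 RPM in Col-0 x Cvi-0 embryos. At the 1-cell/2-cell stage the ratio of Cvi-0 x Col-0 to Col-0 x Cvi-0 was 0.331 for ACBP3 and 0.712 for AAE5, a wider gap for ACBP3. NIT2 (AT3G44300, chr3:15983199-15985535), a nitrilase that can make the auxin indole-3-acetic acid from its nitrile, had 73.8, 1.52 and 1.41 RPM in Cvi-0 x Col-0 embryos, and 105, 6.94 and 2.12 RPM in Col-0 x Cvi-0 embryos.

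A pair of small DnaJ chaperones of the plastid, J8 and J11, belonged to the group. J8 (AT1G80920, chr1:30403503-30404713) had 34.9, 3.84 and 2.13 RPM at the 3 stages in Cvi-0 x Col-0 embryos, and 52.6, 5.57 and 3.29 RPM in Col-0 x Cvi-0 embryos. J11 (AT4G36040, chr4:17049152-17050608) had 46.3, 4.25 and 0.270 RPM in Cvi-0 x Col-0 embryos and 73.6, 5.70 and 0.553 RPM in Col-0 x Cvi-0 embryos. The ratio of the 32-cell to the 8-cell level was 0.555 in Cvi-0 x Col-0 and 0.590 in Col-0 x Cvi-0 for J8, and 0.0636 and 0.0971 in these crosses for J11. ANN6 (AT5G10220, chr5:3206868-3208830) is an annexin, a protein that binds membranes in the presence of calcium. It had 27.1, 0.506 and 2.10 RPM in Cvi-0 x Col-0 embryos and 17.4, 0.619 and 3.07 RPM in Col-0 x Cvi-0 embryos. Its lowest values were thus those of the 8-cell stage. HIR2 (AT3G01290), a membrane protein of the group named for the hypersensitive reaction, had 10.3 RPM at the 1-cell/2-cell stage of Cvi-0 x Col-0 embryos. It then had 0 reads at the 8-cell and 32-cell stages of that cross, which allow up to 0.202 and 0.180 RPM. In Col-0 x Cvi-0 embryos HIR2 had 25.1, 0.991 and 0.0615 RPM.

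Zinc finger and signalling proteins formed another set. AT5G22920 (RZPF34, chr5:7664871-7667288), a RING finger protein of the CHY zinc finger type, had 97.2, 17.2 and 2.82 RPM at the 3 stages in Cvi-0 x Col-0 embryos, and 202, 5.74 and 5.78 RPM in Col-0 x Cvi-0 embryos. ATCTH (AT2G25900, TZF1, chr2:11041331-11043256), a tandem zinc finger protein of RNA granules, had 50.02, 7.01 and 5.25 RPM in Cvi-0 x Col-0 embryos and 65.5, 6.65 and 5.68 RPM in Col-0 x Cvi-0 embryos. ATCTH therefore changed little after the 8-cell stage. BT1 (AT5G63160, chr5:25333172-25335570), a BTB and TAZ domain protein of the kind that brings targets to cullin 3 ubiquitin ligases, had 39.8, 0.371 and 0.120 RPM in Cvi-0 x Col-0 embryos, and 55.8, 3.72 and 0.215 RPM in Col-0 x Cvi-0 embryos. AT1G02610, another RING-type protein by annotation, had 14.2, 2.36 and 2.16 RPM in Cvi-0 x Col-0 embryos, and 15.3, 2.64 and 1.35 RPM in Col-0 x Cvi-0 embryos. BT1 was close to detection in 32-cell embryos of both crosses, and AT1G02610 was not. SOB5 (AT5G08150), which raises cytokinin responses when it is overexpressed, had 53.7, 7.96 and 2.40 RPM in Cvi-0 x Col-0 embryos and 45.9, 7.27 and 0.707 RPM in Col-0 x Cvi-0 embryos. ARR15 (AT1G74890), a type-A response regulator that restrains cytokinin signalling, was measured at 10.2, 1.62 and 1.38 RPM in Cvi-0 x Col-0 embryos, and at 12.98, 1.57 and 1.41 RPM in Col-0 x Cvi-0 embryos. The 2 cytokinin genes differed after the 8-cell stage, with ARR15 level and SOB5 lower.

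The remaining genes are known by annotation only. AT3G15450 (chr3:5212984-5214124), annotated as an aluminium-induced protein with YGL and LRDR motifs, had 261, 25.7 and 1.23 RPM in Cvi-0 x Col-0 embryos, and 760, 17.2 and 15.1 RPM in Col-0 x Cvi-0 embryos. AT1G68440 (chr1:25657757-25659484), an uncharacterized protein, had 137, 13.7 and 3.81 RPM in Cvi-0 x Col-0 embryos and 232, 10.7 and 2.06 RPM in Col-0 x Cvi-0 embryos. These 2 genes had their higher 1-cell/2-cell value in Col-0 x Cvi-0 embryos. AT3G15630, with no described domain, had 134, 18.9 and 8.65 RPM in Cvi-0 x Col-0 embryos, and 133, 9.17 and 7.93 RPM in Col-0 x Cvi-0 embryos. AT5G21940, annotated as similar to a hybrid histidine kinase, had 103, 12.3 and 3.42 RPM in Cvi-0 x Col-0 embryos, and 127, 17.5 and 8.24 RPM in Col-0 x Cvi-0 embryos. Both were close between the crosses at the 1-cell/2-cell stage. AT5G37140, a P-loop nucleoside triphosphatase by annotation, had 57.3, 6.37 and 8.98 RPM in Cvi-0 x Col-0 embryos and 56.6, 6.11 and 8.02 RPM in Col-0 x Cvi-0 embryos. AT1G19835, a filament-like protein, had 35.7, 1.45 and 1.62 RPM in Cvi-0 x Col-0 embryos, and 37.9, 4.95 and 0.246 RPM in Col-0 x Cvi-0 embryos. Their 1-cell/2-cell values in the crosses differed by less than those of any transporter. AT4G28240 (chr4:13997292-13998604), annotated as a wound-responsive protein, had 10.8, 1.45 and 0.0601 RPM in Cvi-0 x Col-0 embryos, and 26.4, 0.495 and 1.91 RPM in Col-0 x Cvi-0 embryos.

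The edge of the rule fell within a continuous range. The early-confined genes nearest to it, by the ratio of the lower 1-cell/2-cell value to the highest later value, were AT1G02610 (5.38), ACBP3 (5.45), INT4 (5.49), AT5G22920 (5.64) and ANN6 (5.66). Just outside stood ERD5, the proline dehydrogenase of mitochondria (4.92), the trehalose-phosphate synthase homologue TPS11 (4.91), the transcription factor CRF4 (4.85), the thioredoxin ACHT5 (4.76) and AT3G54310 (4.70). With a 3-fold rule 80 genes would qualify, and with a 10-fold rule 6. Scaling matters to this membership: 17 of the 26 genes stayed past both thresholds when library sizes were scaled by TMM, and 19 with the size factors of DESeq2. Over the 9518 genes with a mean of at least 10 RPM, the median log2 difference of 8-cell minus 1-cell/2-cell embryos was 0.08 with TMM and -0.10 with RPM, a shift that is small beside the differences of the 26 genes. Leaving out the 1-cell/2-cell library of Cvi-0 x Col-0 would raise the number to 169, and leaving out that of Col-0 x Cvi-0 to 50. Without the 8-cell library of Cvi-0 x Col-0 it was 54, and without that of Col-0 x Cvi-0 it was 61.

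Lists of relatives of the named genes, chosen after the values of these were seen, held no further gene that met the rule. The lists may not hold every gene of a family. Of the 8604 genes with 10 or more RPM in both 1-cell/2-cell libraries, 25% were higher in both than in all later libraries. Of the other 16 SWEET genes, 9 stayed under 1 RPM in each library, and the 1 that reached 10 RPM in both 1-cell/2-cell libraries was not higher there than in all later libraries. Of 7 other EXORDIUM genes, 5 reached 10 RPM, and all 5 were higher in both 1-cell/2-cell libraries than in any later one, by ratios of up to 2.47. Among 17 other genes of the glyoxylate cycle and of fatty acid beta-oxidation, 13 reached 10 RPM and 10 of these were higher in the 1-cell/2-cell libraries, with ratios of up to 1.87. Among the other acyl-CoA-binding proteins 2 of 3 genes that reached 10 RPM were higher in the 1-cell/2-cell libraries, and among the annexins 1 of 2. The other HIR gene listed was not, nor was either of the 2 listed pectin acetylesterases at this level, 1 of which was higher in all later libraries. The single BTB and TAZ gene besides BT1 that reached 10 RPM had a ratio of 3.21. No other inositol transporter, nitrilase or type-A response regulator reached 10 RPM in both 1-cell/2-cell libraries. Relatives below this level are outside the counts, which therefore do not show how whole families moved. Such relatives went both ways. PCK1, SWEET9 and ARR7 rose in both crosses, PCK1 from 1.75 RPM in 1-cell/2-cell to 122 RPM in 32-cell embryos of Cvi-0 x Col-0. EXL6 and BT2 fell in both crosses, EXL6 from 13.6 to 0.184 RPM between these stages of Col-0 x Cvi-0.

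The first question that the rule left untouched was whether these RNAs came from one parent. Reads over known variants were given to an allele, Col-0 or Cvi-0, by the authors, and hence to mother or father. Of the 26 genes, 23 had such reads, and AT3G15630, AT5G21940 and ARR15 had none. At least 10 allele reads in both 1-cell/2-cell libraries were found for 15 genes.

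In 1-cell/2-cell embryos of Cvi-0 x Col-0 the early-confined genes had 1082 maternal and 1500 paternal reads. The mother's share was 41.9% (exact Clopper-Pearson 95% interval 39.99% to 43.8%). In Col-0 x Cvi-0 they had 1693 maternal and 1437 paternal reads, a share of 54.1% (52.3% to 55.8%). Intervals of read shares cover counting error only, since reads were amplified and had no molecular identifiers. The share thus lay below 50% with a Cvi-0 mother and above 50% with a Col-0 mother. J8 weighed on both, with 9 maternal and 163 paternal reads in Cvi-0 x Col-0. In Col-0 x Cvi-0 it had 277 maternal and 12 paternal reads. With J8 set aside, maternal reads no longer outnumbered paternal reads in Col-0 x Cvi-0. Genes outside the early-confined group had maternal shares of 46.2% in Cvi-0 x Col-0 and 53.7% in Col-0 x Cvi-0. Averaged over both crosses on the log2 ratio scale, the maternal share was 48.0% for the early-confined genes (46.7% to 49.3%), against 49.95% for all other genes. Without SWEET8, which had the most allele reads, it was 46.5%.

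Gene by gene, the maternal share averaged over both crosses ran between 28.1% (ICL) and 51.3% (AT5G22920), with a median of 47.0% and 4 of 15 genes above 50%. Over all 5844 genes tested the median was 50%. The parental effect was tested with edgeR's quasi-likelihood test across these 5844 genes, with a term for the allele's accession. It called 0 of the 15 genes at a Benjamini-Hochberg adjusted p of 0.05, beside 0% of all genes tested. Without adjustment, 0 of the 15 genes and 318 of all genes had a p under 0.05, and DESeq2 called 9 genes, none of them early-confined. The median log2 difference of maternal minus paternal reads was -0.15 for the 15 genes.

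SWEET8 had the most reads for this question. Its allele reads lay over 1 variant, as did those of ICL, against 2 variants for AT1G68440 and 8 for BT1. In Cvi-0 x Col-0 embryos SWEET8 had 373 maternal and 312 paternal reads, and in Col-0 x Cvi-0 embryos 257 maternal and 299 paternal reads. Its log2 difference of maternal minus paternal was 0.02 ± 0.30 (SE, adjusted p of 1 by edgeR's quasi-likelihood test), and the Cvi-0 allele had more reads in both crosses. ICL stood at the other end. It had 4 maternal and 41 paternal reads in Cvi-0 x Col-0 embryos, and 18 maternal and 20 paternal reads in Col-0 x Cvi-0 embryos. Its fitted difference was -1.71 ± 1.08 (adjusted p = 0.955, edgeR). BT1 was similar, with 9 maternal and 75 paternal reads in Cvi-0 x Col-0 embryos and 78 maternal and 72 paternal reads in Col-0 x Cvi-0 embryos. Its fitted difference was -1.40 ± 0.69 (adjusted p = 0.917, edgeR). For ICL and BT1 the paternal excess lay in the library of 1 cross. Without the 1-cell/2-cell library of Cvi-0 x Col-0 the difference of BT1 turned to 2.02 (adjusted p = 1). AT1G68440 had 66 maternal and 93 paternal reads in Cvi-0 x Col-0 embryos, and 107 maternal and 141 paternal reads in Col-0 x Cvi-0 embryos, so that its maternal share was below 50% in both. The fitted difference was -0.44 ± 0.47 (adjusted p of 1, edgeR).

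**Figure D2:**
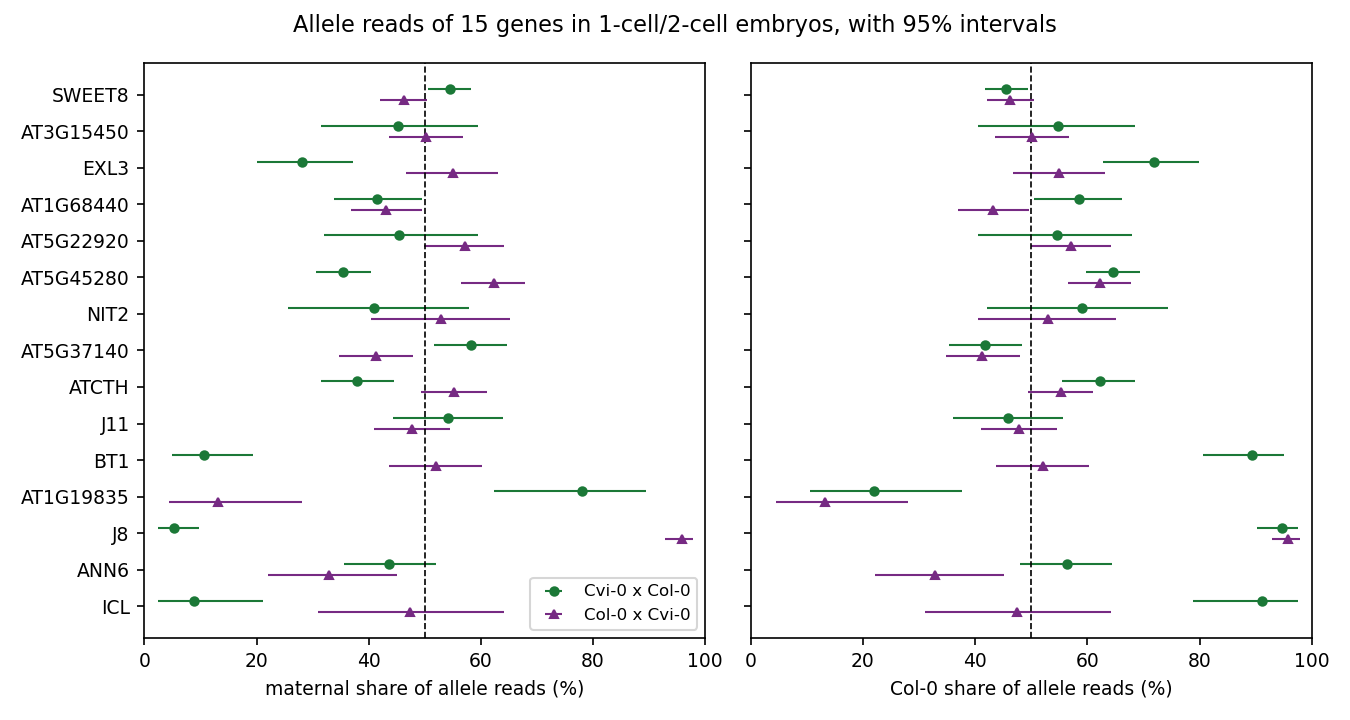
Shares of allele reads in 1-cell/2-cell embryos for the 15 genes with at least 10 such reads in both libraries, as maternal share (left) and as share of the Col-0 allele (right). Bars are exact 95% intervals of counting error. J8 lies near the right edge on the Col-0 axis in both crosses, and SWEET8 lies near 50% on both axes.

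Whether reads favoured the allele of one accession was read from the same fit. There, 2 of the 15 genes had more reads from the Col-0 than from the Cvi-0 allele at an adjusted p of 0.05 and 0 had fewer, against 13.9% and 6.69% of all genes tested (20.6% in both directions). This share is near the background. J8 had 163 Col-0 and 9 Cvi-0 reads in 1-cell/2-cell embryos of Cvi-0 x Col-0, and 277 Col-0 and 12 Cvi-0 reads in those of Col-0 x Cvi-0. The Col-0 allele thus gave 94.8% and 95.8% of reads at this stage, whichever parent carried it. At the 8-cell stage J8 had 24 Col-0 and 0 Cvi-0 reads in Cvi-0 x Col-0, and 27 and 0 in Col-0 x Cvi-0. The 32-cell library of Cvi-0 x Col-0 went the other way, with 5 Col-0 and 14 Cvi-0 reads. That of Col-0 x Cvi-0 had 6 Col-0 reads and 1 Cvi-0 read. Over all stages the log2 difference of Col-0 minus Cvi-0 was 4.27 ± 0.61 (adjusted p = 0.000434, edgeR's quasi-likelihood test). Reads were mapped with perfect matches to the Col-0 genome and to a version of it edited at known variants, so a Cvi-0 variant missing from that list would cost Cvi-0 reads, and its part was not tested.

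ATCTH was the other gene with a Col-0 excess. It had 138 Col-0 and 84 Cvi-0 reads in Cvi-0 x Col-0 embryos and 163 Col-0 and 132 Cvi-0 reads in Col-0 x Cvi-0 embryos of the 1-cell/2-cell stage. Its difference over all stages was 1.14 ± 0.29 (adjusted p = 0.0166, edgeR). The call was lost without the 32-cell library of Cvi-0 x Col-0 (0.77, adjusted p = 0.132) or of Col-0 x Cvi-0 (0.77, adjusted p = 0.142), and without the 8-cell library of Cvi-0 x Col-0 (1.14, adjusted p = 0.0679) or of Col-0 x Cvi-0 (1.14, adjusted p = 0.0667). AT5G45280 had 254 Col-0 and 139 Cvi-0 reads in Cvi-0 x Col-0 embryos and 185 Col-0 and 112 Cvi-0 reads in Col-0 x Cvi-0 embryos. Its difference of 1.14 ± 0.44 missed the threshold (adjusted p = 0.0959, edgeR), and passed it without the 1-cell/2-cell library of Cvi-0 x Col-0 (2.05, adjusted p = 0.0255). At the 1-cell/2-cell stage AT1G19835 leaned to the other accession. It had 9 Col-0 and 32 Cvi-0 reads in Cvi-0 x Col-0 embryos and 5 Col-0 and 33 Cvi-0 reads in Col-0 x Cvi-0 embryos. Its few 8-cell reads did not share this lean, with 3 Col-0 and 0 Cvi-0 in Cvi-0 x Col-0, and 6 and 4 in Col-0 x Cvi-0. Both 32-cell libraries had 0 allele reads of it. The difference of AT1G19835 over all stages, -0.93 ± 0.97, did not pass (adjusted p = 0.561, edgeR).

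The next question was whether the genes went on declining between the 8-cell and the 32-cell stage, which lie on the same side of the rule. In 18 of the 26 genes (69.2%) both 32-cell libraries were below both 8-cell libraries, against 20.5% of the 8604 genes with at least 10 RPM in both 1-cell/2-cell libraries. Both 32-cell libraries were above both 8-cell libraries in 3 genes (11.5%), namely EXL3, AT5G37140 and ANN6, against 21.7% of the 8604. The fitted log2 difference of 32-cell minus 8-cell had a median of -1.31 over the 26 genes and of 0.0097 over the 17478 genes tested, and 3 of the 26 differences were above 0. No difference of a single gene passed an adjusted p of 0.05 in edgeR's quasi-likelihood test (0 of 26, beside 0% of all genes tested). Without adjustment a p under 0.05 was found for 11 of the 26 and for 2064 of the 17478.

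J11 had 0.270 RPM in 32-cell and 4.25 RPM in 8-cell embryos of Cvi-0 x Col-0, and 0.553 RPM in 32-cell and 5.70 RPM in 8-cell embryos of Col-0 x Cvi-0. Its log2 difference was -3.68 ± 0.43 (SE), with an adjusted p of 0.123, the lowest of the 26 (edgeR). AT1G68440 had -2.08 ± 0.40 (adjusted p = 0.175), SOB5 -2.42 ± 0.47 (adjusted p = 0.177) and MLS -4.50 ± 1.01 (adjusted p = 0.198), on the same scale and by the same test. For these 4 genes the 32-cell values lay below the 8-cell values in both crosses. SWEET8 had -2.64 ± 0.62 (adjusted p = 0.211), with ratios of the 32-cell to the 8-cell level of 0.433 in Cvi-0 x Col-0 and 0.0656 in Col-0 x Cvi-0. ANN6 went the other way, with 2.08 ± 0.62 (adjusted p = 0.279) and ratios of 4.16 in Cvi-0 x Col-0 and 4.97 in Col-0 x Cvi-0.

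This outcome depended on the tool and on single libraries. DESeq2 called 7 of the 26 genes, all lower in 32-cell embryos, among 647 genes in all. With edgeR, 8 of the 26 were called lower without the 32-cell library of Cvi-0 x Col-0, among 697 genes called in all, and 3 among 71 without that of Col-0 x Cvi-0. Without the 8-cell library of Cvi-0 x Col-0 the number was 1 among 39. It was 6 among 455 without the 1-cell/2-cell library of Cvi-0 x Col-0 and 5 among 538 without that of Col-0 x Cvi-0. These fits have fewer libraries to estimate the spread from.

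**Figure D3:**
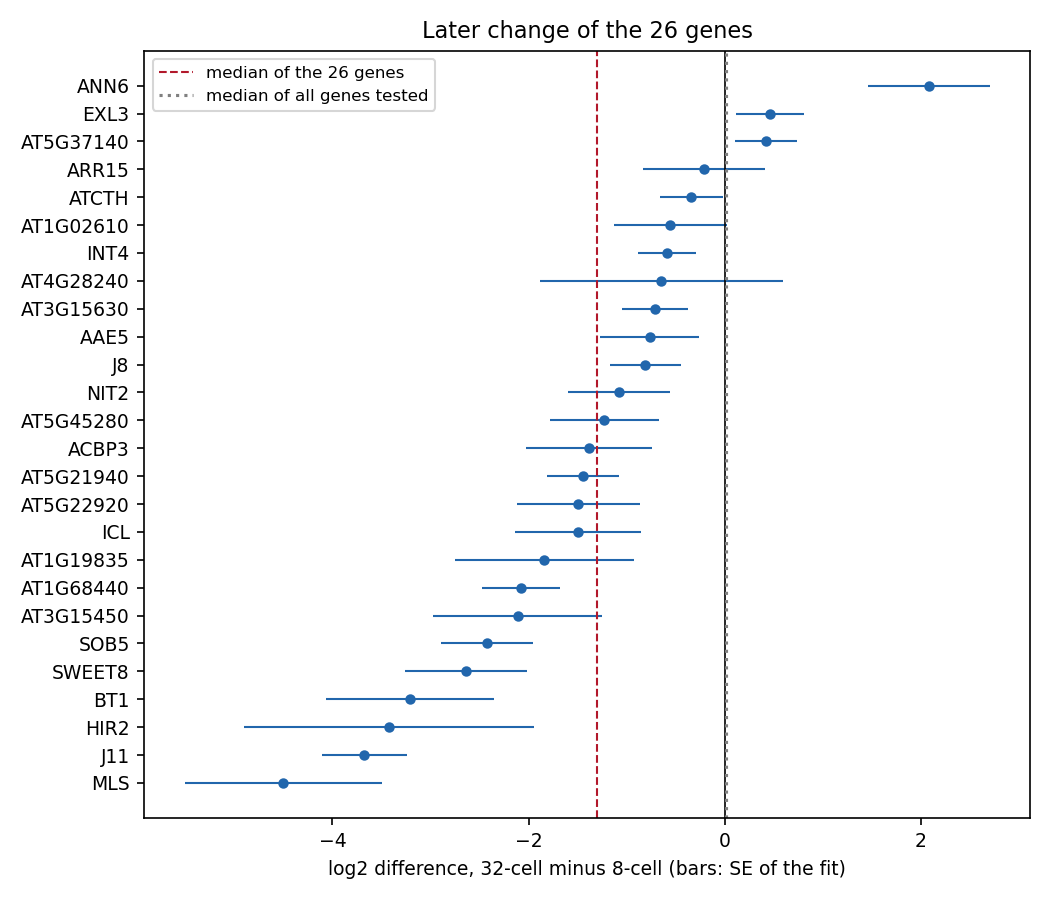
Fitted log2 difference of 32-cell minus 8-cell embryos for each early-confined gene, with bars for the standard error. ANN6, EXL3 and AT5G37140 lie above 0 and the other 23 genes below, and the median of the 26 genes (-1.31) lies left of that of all genes tested.

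The crosses were compared next. At the 1-cell/2-cell stage, 20 of the 26 genes had less RPM in Cvi-0 x Col-0 than in Col-0 x Cvi-0 embryos (76.9%), against 47.4% of the 8604 genes. The median log2 difference of Cvi-0 x Col-0 minus Col-0 x Cvi-0 was -0.49 for the 26 genes and 0.02 for the 8604. The ratio of Cvi-0 x Col-0 to Col-0 x Cvi-0 was lowest for MLS (0.310), ACBP3 (0.331) and AT3G15450 (0.344), and highest for ANN6 (1.56), AT5G45280 (1.39) and SWEET8 (1.31). The 26 genes took 0.267% of gene reads in Cvi-0 x Col-0 and 0.379% in Col-0 x Cvi-0 embryos of this stage. Since each cross has 1 library here, a difference between libraries and one between crosses cannot be told apart.

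Over all stages, edgeR's quasi-likelihood test of a Cvi-0 mother against a Col-0 mother called 0 of the 26 genes, beside 0.00572% of the 17478 tested, which is 1 gene. Unadjusted p-values under 0.05 were found for 6 of the 26 and for 992 of all genes, and DESeq2 called 0 of the 26 and 49 in all. The fitted log2 differences had a median of -0.30, and 5 of 26 were above 0. The lowest unadjusted p was that of NIT2, with -1.19 ± 0.41 and an adjusted p of 0.83 (edgeR).

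Genes of known responses were followed as lists. Of 25 genes induced by sugar starvation or darkness, AT5G22920 is itself early-confined and is set aside, and 19 others were tested for 8-cell against 1-cell/2-cell embryos. This contrast called 1.1% of the 17478 genes with edgeR's quasi-likelihood test, 0.864% higher and 0.235% lower in 8-cell embryos. It had been used to choose the early-confined genes, of which 15 passed it, and nothing is read from that number. Of the 19 tested genes, 18 had a log2 difference of 8-cell minus 1-cell/2-cell below 0, with a median of -1.98 against 0.0094 for all genes. The 2 genes that passed the test were both lower in 8-cell embryos, and these calls depended on the 8-cell library of Col-0 x Cvi-0.

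TPS11 had 13.9 RPM in 8-cell and 68.3 RPM in 1-cell/2-cell embryos of Cvi-0 x Col-0, and 9.87 RPM in 8-cell and 87.0 RPM in 1-cell/2-cell embryos of Col-0 x Cvi-0. Its log2 difference was -2.57 ± 0.34 (adjusted p = 0.0173, edgeR). ERD5 had 3.74 RPM in 8-cell and 28.0 RPM in 1-cell/2-cell embryos of Cvi-0 x Col-0, and 5.32 RPM in 8-cell and 77.8 RPM in 1-cell/2-cell embryos of Col-0 x Cvi-0. Its difference was -3.23 ± 0.38 (adjusted p = 0.011, edgeR). TPS11 and ERD5 are the genes just outside the fold of the rule, so their difference is not independent of it. The raffinose synthase homologue DIN10 had -1.98 ± 0.47 (adjusted p = 0.129) and the transcription factor bZIP53 -1.30 ± 0.27 (adjusted p = 0.0879) without passing. Summed over all 25 genes of the list, RPM was 1001, 370 and 232 at the 3 stages, youngest first, in Cvi-0 x Col-0 embryos. In Col-0 x Cvi-0 embryos the sums were 1398, 226 and 202 RPM. These sums include the early-confined AT5G22920, chosen for its decline. It gave 97.2, 17.2 and 2.82 RPM of them in Cvi-0 x Col-0, and 202, 5.74 and 5.78 RPM in Col-0 x Cvi-0.

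**Figure D4:**
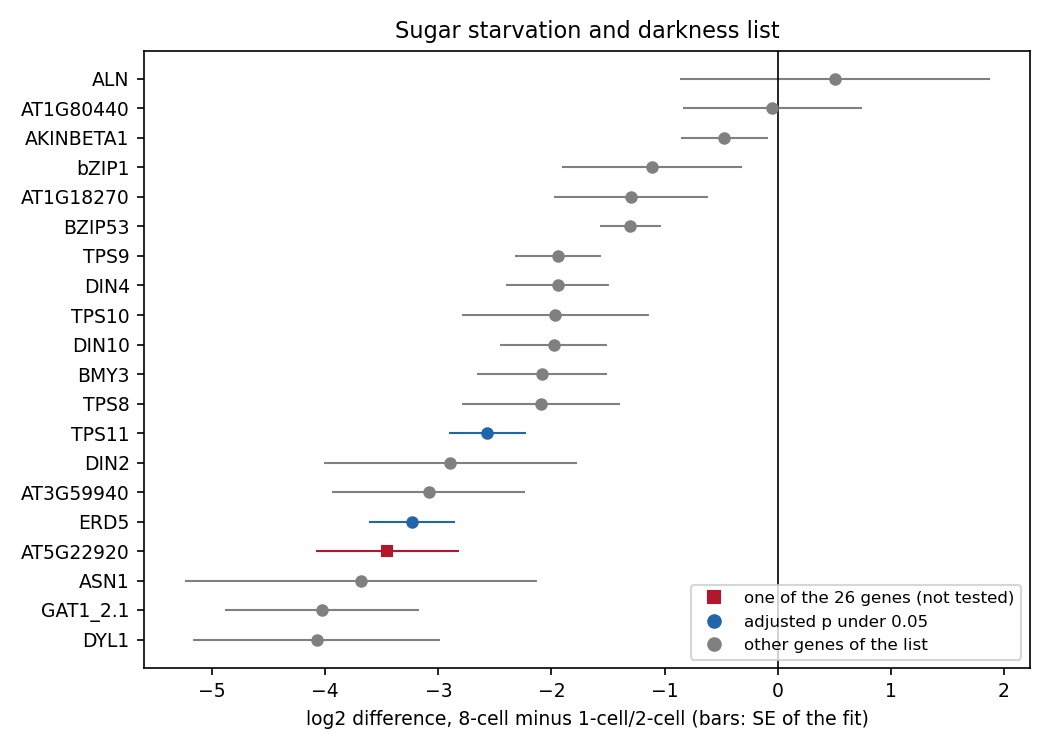
Fitted log2 difference of 8-cell minus 1-cell/2-cell embryos for the 20 genes of the sugar starvation and darkness list that have a fitted value, with bars for the standard error. ALN alone lies above 0, TPS11 and ERD5 passed the test, and AT5G22920 is early-confined and so has no test.

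The other response lists held no early-confined gene and no gene that passed this contrast. Their median differences of 8-cell minus 1-cell/2-cell were -0.32 for abscisic acid and drought (10 tested), 0.44 for hypoxia (8), -1.02 for phosphate starvation (4), -0.89 for senescence (2) and 0.21 for touch and wounding (13). The 8-cell libraries stood apart in a pair of these lists. The abscisic acid and drought genes summed to 289 RPM in the 8-cell library of Cvi-0 x Col-0 and 24.4 RPM in that of Col-0 x Cvi-0, and the hypoxia genes to 111 and 557 RPM in these libraries. The alcohol dehydrogenase gene ADH1 had 11.9 RPM in the first and 365 RPM in the second. Over all lists, genes of the early-confined group set aside, 3 of 90 genes were called. That number was 20 without either 32-cell library, 8 without either 1-cell/2-cell library, 5 without the 8-cell library of Cvi-0 x Col-0 and 1 without that of Col-0 x Cvi-0. DESeq2 called 19, of which 14 were lower in 8-cell embryos.

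Markers of other tissues were summed per library. The 10 pollen and sperm markers summed to 8.85 RPM in 1-cell/2-cell embryos of Cvi-0 x Col-0, with 5 of them at 0, and to 106 RPM in those of Col-0 x Cvi-0, with 4 at 0. At the 8-cell stage the sums were 14.1 RPM in Cvi-0 x Col-0 and 3.47 RPM in Col-0 x Cvi-0 embryos, and at the 32-cell stage 3.72 and 3.78 RPM in these crosses. The pollen pectin methylesterases VGD1 (4.08 and 69.1 RPM in Cvi-0 x Col-0 and Col-0 x Cvi-0) and VGDH1 (4.27 and 30.9 RPM) made up most of this sum, while the sperm genes DUO1, MGH3 and SSP were at 0 in all libraries. The library with the higher sum is also the one with more RPM of 20 early-confined genes, and the part of pollen RNA in that was not tested. Seed coat markers (14 genes) summed to 67.3, 108 and 160 RPM at the 3 stages in Cvi-0 x Col-0 embryos, and to 58.2, 63.8 and 75.6 RPM in Col-0 x Cvi-0 embryos, so that the sum was higher with the Cvi-0 mother at each stage. The 8 endosperm markers summed to 8.36 to 22.7 RPM in the later libraries and 45.1 to 48.3 RPM at the 1-cell/2-cell stage. Of the 1-cell/2-cell endosperm sum, 40.9 RPM in Cvi-0 x Col-0 and 44.8 RPM in Col-0 x Cvi-0 came from SUC5. Egg cell and female gametophyte markers (13 genes) summed to 89.1, 54.9 and 46.9 RPM at the 3 stages in Cvi-0 x Col-0 embryos, and to 70.4, 43.7 and 43.95 RPM in Col-0 x Cvi-0 embryos. The egg cell gene EC1.5 had 56.2, 9.51 and 9.82 RPM in Cvi-0 x Col-0 embryos, and 33.5, 7.39 and 16.4 RPM in Col-0 x Cvi-0 embryos. The egg cell transcription factor RKD2 had 6.91, 0.472 and 0.961 RPM in Cvi-0 x Col-0 embryos, and 12.6, 0.826 and 0.553 RPM in Col-0 x Cvi-0 embryos. The sum and both of these genes were higher in the 1-cell/2-cell libraries, as the early-confined genes are by the rule. EC1.5 and RKD2 were named after their values were seen, and the list did not move as a whole. Of its 5 genes tested for 8-cell against 1-cell/2-cell embryos, only these 2 had a log2 difference below 0. The median was 0.74, DME, FWA and AGL80 had differences above 0, and none of the 5 passed. DME had 33.6 RPM in 8-cell and 23.7 RPM in 1-cell/2-cell embryos of Cvi-0 x Col-0. The part of these markers in the result was not tested. Embryo markers (11 genes) summed to 1231, 2024 and 3225 RPM at the 3 stages in Cvi-0 x Col-0 embryos, and to 972, 2201 and 4049 RPM in Col-0 x Cvi-0 embryos. The increase of the sum lay in PDF1. The other 10 embryo markers summed to 1152, 815.5 and 997.6 RPM in Cvi-0 x Col-0 embryos, and to 874.7, 996.5 and 869.8 RPM in Col-0 x Cvi-0 embryos. These sums hide opposite moves. Between 1-cell/2-cell and 32-cell embryos SYP111 rose from 43.0 to 280 RPM in Cvi-0 x Col-0 and from 14.5 to 179 RPM in Col-0 x Cvi-0. MP rose as well, while ATML1, WOX2, WOX8 and ESR1 fell in both crosses. The epidermal gene PDF1 was the 1 embryo marker that passed the contrast, higher in 8-cell embryos by 3.94 ± 0.30 on the log2 scale (adjusted p = 0.0054, edgeR).

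The early-confined genes were spread over all 5 nuclear chromosomes. Chromosome 5 held 11 of them (42.3%), against 23.2% of all genes, and chromosome 2 held 1 (3.85%), against 15.5%. Of the 4 genes left out by name that passed both conditions, 2 lie on chromosome 2, which would then hold 3 of 30. No 2 were neighbours. The closest pair, AT3G15450 and AT3G15630, lay 22 genes and 82717 bases apart.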

How the data were processed

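Strand-specific poly(A) libraries were made by linear amplification, per the labels' protocols, which adds noise beyond counting. Reads were mapped with Bowtie to TAIR10 and to a version of it edited to Cvi-0 variants, keeping perfect and unique matches, per the series' design text. Neither the Bowtie version nor the counting program is given in the sources used here. Reads that near-identical genes share are lost by unique matching, and perfect matching can lose Cvi-0 reads at unlisted variants.

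The authors deposited reads over each gene in steps of 0.5 (treated as estimated counts and rounded), allele counts per gene, and RPM scaled to the mapped reads of each library, per the file headers. The printed RPM are the authors'. Another 24 columns of the files were not used. Symbols, products and coordinates came from the TAIR10.1 annotation, which matched 23747 of 23874 genes and all 26 chosen ones.

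Gene reads were tested with edgeR 4.0.16 (R 4.3.3, limma 3.58.1; glmQLFit and glmQLFTest) after filterByExpr and TMM scaling (factors 0.855 to 1.11), with stage and cross as terms. All 26 genes passed this filter. Allele reads were tested over 12 allele columns with library, accession and parent within stage as terms, for genes with at least 10 allele reads in each 1-cell/2-cell library. Both fits had 2 residual degrees of freedom. Their biological coefficients of variation were 42.9% (genes) and 30.3% (alleles). P-values measure the spread left in these fits, since no group had a repeated sample, and may be technical. Adjustment was by Benjamini-Hochberg over all genes tested, with a threshold of 0.05. DESeq2 1.42.0 was an alternative. Standard errors are the log2 difference divided by the square root of F. Shares within a library have exact Clopper-Pearson 95% intervals, and 0 reads allow up to 3 reads. The 95% interval of the share averaged over both crosses is a normal approximation on the log2 ratio scale, for counting error only.

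The genes, lists and tests were chosen with earlier results of these data known. Values were to be named for the 20 genes with the highest lower 1-cell/2-cell RPM, for genes called by a test, in a list, or among the 5 nearest to the fold of the rule on each side. Values of ICL, MLS, AT4G28240, HIR2 and ARR15, and the marker genes named singly, were added after they were seen.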

Additional observations from a re-analysis of the deposited data

Results flagged for a closer look

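AT4G28240, the wound-responsive protein by annotation, had a ratio of 32-cell to 8-cell RPM of 0.0414 in Cvi-0 x Col-0 embryos and of 3.85 in Col-0 x Cvi-0 embryos. The crosses moved in opposite directions, and the difference between them was not tested. The 32-cell library of Cvi-0 x Col-0 held 1 read of the gene and the 8-cell library of Col-0 x Cvi-0 held 6, so both ratios rest on few reads.

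AT1G68440 had 58.5% of its allele reads from Col-0 in 1-cell/2-cell embryos of Cvi-0 x Col-0 and 43.1% in those of Col-0 x Cvi-0. The Col-0 share lay on opposite sides of 50% in the crosses, each time with fewer maternal reads. Tested as a parental effect, the log2 difference of maternal minus paternal was -0.44 ± 0.47 (SE, adjusted p of 1 by edgeR's quasi-likelihood test).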

How the results depend on the processing

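The membership counted 80 genes at a 3-fold rule, 6 at 10-fold, 40 at a lower 1-cell/2-cell level of 5 RPM and 17 with TMM-scaled libraries, and 26 to 169 with 1 library left out. Calls of the early-confined genes for 32-cell against 8-cell embryos numbered 7 with DESeq2, 5 with no filter on low counts and 0 to 8 with 1 library left out, and over all genes 647, 312 and 0 to 697 under the same settings. For 8-cell against 1-cell/2-cell embryos the listed genes called numbered 19 with DESeq2, 13 with no filter and 1 to 20 with 1 library left out, and all genes 814, 488 and 106 to 673. For the cross direction all genes called numbered 49 with DESeq2, 8 with no filter and 1 to 101 with 1 library left out. For the parental effect they numbered 9 with DESeq2, 10 with a mean of 10 allele reads, 48 with at least 1 allele read in each library, and 0 to 27 with 1 library left out, with 0 early-confined genes called in all of these. The accession effect called 1 to 3 early-confined genes and 736 to 1220 genes in all with 1 library left out. J8 was called in all 10 alternatives. The pooled maternal share was 46.98% to 47.97% under the other ways of summing, and 46.46% without SWEET8 and 41.91% to 54.09% with 1 library. The parental difference of BT1 ran from -4.95 to 2.02 with 1 library left out. The causes were not tested, and fits with a library left out have fewer residual degrees of freedom. The cross direction is the only term that pairs libraries of different stages: with no replicate block, 0 early-confined genes and 0 genes in all were called for 32-cell against 8-cell embryos, and 4 listed genes and 222 in all for 8-cell against 1-cell/2-cell embryos. Depth limits the 32-cell values of MLS, HIR2, BT1 and J11, which rest on few reads.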
